A study of Mus musculus with 20 samples.

Results

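Antigen presentation genes were read in bulk RNA of mouse liver and kidney. They were taken as the protein-coding genes of the count table whose GENCODE symbol begins with H2-, apart from 1 gene that this definition leaves out, together with B2m, Tap1, Tap2, Tapbp, Nlrc5, Ciita, Cd74, Psmb8, Psmb9 and Psmb10. This gave 49 of the 57010 genes in the table, 39 of them H2 genes and 10 others, and 44 lie on chromosome 17, which carries the mouse major histocompatibility complex (MHC). The mice were male UM-HET3 animals, 12 months old when the experiment began. UM-HET3 mice are the offspring of a 4-way cross of inbred strains, so that MHC haplotypes differ among the mice, whereas the reads were aligned to the C57BL/6J genome. In the 7c group, minipumps under the skin released valproate at 1 mg/kg/day, and TTNPB, forskolin, CHIR99021, DZNep, tranylcypromine and repsox at 0.1 mg/kg/day each, over 28 days. The vehicle group carried pumps with the solvent alone, 50% DMSO and 50% PEG300, and all mice were kept singly after the operation. There were 6 livers and 6 kidneys with 7c and 4 of each with vehicle, and whether equal replicate numbers in liver and kidney mark the same mouse is not stated in the labels.

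MHC class I molecules consist of a heavy chain and the light chain B2m, and show peptides from inside the cell to CD8 T cells. The peptides are cut by the proteasome, in which Psmb8, Psmb9 and Psmb10 take the place of the constitutive catalytic subunits to form the immunoproteasome, are pumped into the endoplasmic reticulum by Tap1 and Tap2, and are loaded with the help of tapasin, the product of Tapbp. MHC class II molecules pair an alpha and a beta chain (H2-Aa with H2-Ab1), are escorted by the invariant chain Cd74, and exchange its remnant for peptide with the help of the DM chains, which the O chains hold back. Class II is made mainly by dendritic cells, B cells and macrophages, and class I by nearly all nucleated cells. Nlrc5 and Ciita are the transactivators of class I and class II genes and respond to interferon gamma. Among the 49 genes were 30 class I heavy chains (the classical H2-K1 and H2-D1, 7 of the Q region, 9 of the T region and 12 of the M region), B2m, 10 class II genes with Cd74, 3 immunoproteasome subunits, Tap1, Tap2 and Tapbp, and the 2 transactivators.

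Promoters of MHC genes are known for short shared elements, and 8 stretches are printed as examples of class I and class II promoters with and without the exact letters of these elements. In each, capitals mark the kappa B core GGGATTCCC, the X2 core TGACG and the Y box core ATTGG on either strand. The class I stretches lie on chromosome 17 of GRCm39, upstream of H2-K1 (chr17:34219322-34219438, minus strand), H2-Q7 (chr17:35657991-35658108, plus strand), H2-Q6 (chr17:35643647-35643764, plus strand), H2-Q4 (chr17:35598413-35598530, plus strand) and H2-Q10 (chr17:35780804-35780921, plus strand). None of them overlaps an exon of a protein-coding gene.
H2-K1: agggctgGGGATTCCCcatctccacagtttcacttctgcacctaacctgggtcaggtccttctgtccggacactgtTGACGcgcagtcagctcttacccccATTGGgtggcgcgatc
H2-Q7: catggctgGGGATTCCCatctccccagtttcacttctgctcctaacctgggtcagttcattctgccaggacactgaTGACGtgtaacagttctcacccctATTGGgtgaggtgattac
H2-Q6: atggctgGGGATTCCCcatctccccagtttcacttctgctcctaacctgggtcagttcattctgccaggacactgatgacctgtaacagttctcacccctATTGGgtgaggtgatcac
H2-Q4: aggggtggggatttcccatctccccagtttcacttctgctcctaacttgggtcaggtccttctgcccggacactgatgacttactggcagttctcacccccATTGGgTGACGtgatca
H2-Q10: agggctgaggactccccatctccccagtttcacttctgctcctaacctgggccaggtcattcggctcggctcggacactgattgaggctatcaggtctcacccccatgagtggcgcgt
H2-K1 and H2-Q7 hold all 3 elements in the same order, H2-Q6 lacks the exact X2 core, H2-Q4 lacks the exact kappa B core and has TGACG after the Y box in place of before it, and H2-Q10 holds none of the 3 letter for letter. The class II stretches lie upstream of H2-Aa (chr17:34506836-34506892, minus strand), H2-Ab1 (chr17:34482109-34482165, plus strand) and H2-Eb1 (chr17:34524735-34524791, plus strand).
H2-Aa: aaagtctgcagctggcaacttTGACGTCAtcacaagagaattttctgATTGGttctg
H2-Ab1: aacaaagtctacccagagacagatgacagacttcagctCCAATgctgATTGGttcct
H2-Eb1: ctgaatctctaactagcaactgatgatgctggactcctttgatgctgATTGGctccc
All 3 hold the Y box core, H2-Ab1 holds it on the other strand as well (CCAAT), and the X2 core is exact in H2-Aa alone, on both strands. In windows from 250 bases before to 50 bases after the start, ATTGG was found on either strand in 35 of the 49 genes (71.4%) and in 39.97% of all 21664 protein-coding genes. TGACG was found in 13 (26.5%, against 22.6%), the interferon-stimulated response core GAAANNGAA in 9 (18.4%, against 8.77%) and GGGATTCCC in 4 (8.16%, against 0.392%), namely H2-K1, H2-Q5, H2-Q6 and H2-Q7. TGACG followed within 45 bases by ATTGG was found in H2-K1, H2-M3, H2-Q7 and H2-Aa, at gaps of 20, 20, 19 and 21 bases, and in 1.49% of all promoters. None of these motifs was found in the windows of 10 of the 49 genes, H2-D1, H2-Q10, H2-T3, H2-M5, B2m, Tap2, Psmb9, Psmb10, H2-DMb1 and Ciita. No single motif contains another, while the pair is made of TGACG and ATTGG, and a match is a description of these windows.

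The total count was 28383359 to 34153084 per liver library and 27855849 to 64872451 per kidney library. Levels are given as CPM, counts scaled to a common library size, with TMM over all 20 libraries, and no pair of libraries within a group agreed within sampling noise. The tissues matched their labels, the summed CPM of 6 hepatocyte markers being 90848 to 130249.9 in liver and 1681 to 2335 in kidney, and 5 of 8 kidney markers being at 0 in every liver. The liver of 7c replicate 6 stood apart by its skeletal muscle transcripts, with 618 CPM of Acta1, Myh1, Myh4 and Ckm together against at most 0.0907 in the other 9 livers. Libraries of a group were compared in pairs by a chi-square of the counts per gene. Every pair with the kidney of vehicle replicate 2 (86.5 to 138) was above the pairs of the other vehicle kidneys (19.7 to 20.8), and every pair with the liver of vehicle replicate 4 (51.1 to 75.6) was above those of the other vehicle livers (42.5 to 50.3). Pairs with the kidney of 7c replicate 5 (49.9 to 172) reached the highest values and overlapped those of the other 7c kidneys (22.6 to 71.01). The summed CPM of the 8 kidney tubule and podocyte markers was 57371 in the kidney of 7c replicate 5, 50578 in that of vehicle replicate 2 and 28412 to 40383 in the other 8 kidneys. Counts and estimates without these 2 kidneys, a setting chosen after the data were seen, are given beside the kidney results. A gene was tested where at least 10 counts were found in at least 50% of the libraries of a tissue, which 36 of the 49 genes did in liver and 37 in kidney (H2-Oa in kidney alone). The 12 genes tested in neither tissue were 10 of the M region, H2-T9 and H2-Eb2, with at most 20 counts in any library, and H2-M10.1, H2-M10.3, H2-M10.4 and H2-M11 had 0 counts in all 20 libraries, which allows up to 3 counts in each.

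Class I transcripts were far more abundant in liver than in kidney, and in liver most of the heavy chain transcripts came from H2-Q10, a gene whose product is a soluble class I molecule secreted by hepatocytes. The light chain B2m had 1949, 1966, 1835 and 1814 CPM in the 4 vehicle livers and ranged from 1819 to 2455 CPM with a median of 2086 in the 7c livers. The vehicle kidneys had 134, 209, 160.4 and 123 CPM of B2m and the 7c kidneys ranged from 133 to 209 CPM with a median of 175. Every liver thus lay above every kidney, while the 7c and vehicle ranges overlapped in both tissues. H2-Q10 had 3749.6, 2322, 2515 and 3433 CPM in the vehicle livers and ranged from 2115 to 3857 CPM with a median of 2712 in the 7c livers. In kidney it had 1.87, 2.84, 3.02 and 1.48 CPM with vehicle and ranged from 1.32 to 4.14 CPM with a median of 1.94 with 7c. No other heavy chain came near this gap between the tissues. H2-Q10 shares 9.50% of its 100-base windows with other H2 gene models, and whether its few kidney counts come from these was not tested. H2-K1, the first of the classical chains, had 1086, 527, 898 and 1149 CPM in the vehicle livers and ranged from 488 to 1310.5 CPM with a median of 1035 in the 7c livers. H2-D1, the other, had 374, 435, 476 and 375 and ranged from 403 to 747 CPM with a median of 548. The lowest H2-K1 livers were 7c replicate 1 (488 CPM) and vehicle replicate 2 (527 CPM), and 7c replicate 1 had the highest H2-D1 in both tissues (747 CPM in liver and 292 CPM in kidney).

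**Figure D1:**
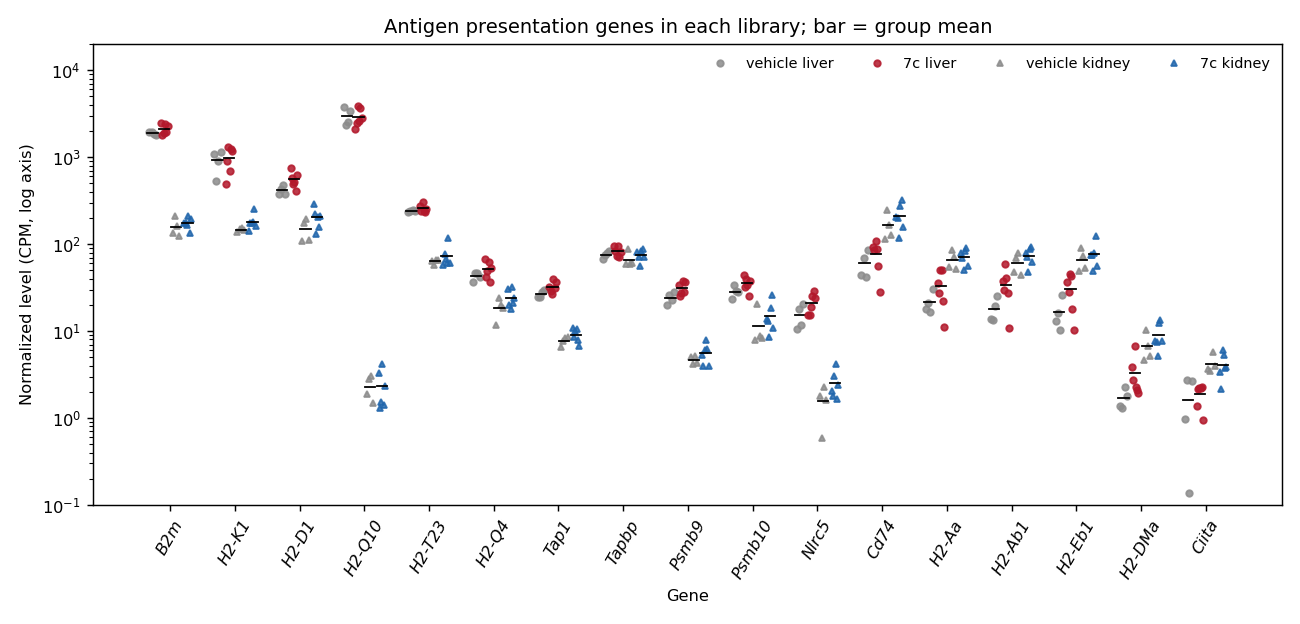
Level (CPM after TMM, log axis) of 17 antigen presentation genes in each of the 20 libraries, circles for liver and triangles for kidney, grey for vehicle, red for 7c liver and blue for 7c kidney, with a bar at each group's mean. B2m, H2-K1 and H2-Q10 sit higher in liver, Cd74 and the class II chains H2-Aa, H2-Ab1 and H2-Eb1 sit higher in kidney, and 7c and vehicle points overlap for every gene shown.

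Per kilobase of exon, so that genes can be compared with one another, B2m led in the vehicle livers with 898 ± 36.9 CPM per kb (SD, n = 4), followed by H2-Q10 (687 ± 159), H2-K1 (287 ± 87.8), H2-D1 (139 ± 16.6) and H2-T23 (69.9 ± 1.95), the homologue of human HLA-E. Each of these steps was larger than the summed SD of its neighbours, as was the step down to H2-T22 (29.7 ± 3.35). From H2-T22 through Cd74 and Tapbp to Psmb10, each level lay within the summed SD of the next, and the step from Psmb10 (16.4 ± 2.39) down to H2-Q4 (12.2 ± 1.44) was again larger. In the 7c livers the order of the first 5 was the same, with H2-K1 and H2-D1 within their summed SD. In the vehicle kidneys the leading genes were B2m (74.4 ± 18.1 CPM per kb), Cd74 (65.2 ± 23.7), H2-D1 (49.5 ± 14.9) and H2-K1 (46.01 ± 1.90), none of them apart from its neighbour beyond the spread. The step from H2-K1 down to H2-Eb1 (25.4 ± 7.22) was larger than the summed SD.

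The make-up of the heavy chain pool followed from these levels. Of the summed CPM of the 30 heavy chains, H2-Q10 held 62.5% ± 3.47 (SD, n = 4) in the vehicle livers and 58.6% ± 3.81 (SD, n = 6) in the 7c livers, against 0.494% ± 0.121 and 0.413% ± 0.205 in the kidneys. H2-K1 and H2-D1 held 18.8% ± 3.29 and 9.03% ± 2.62 in the vehicle livers, and 32.1% ± 2.01 and 31.8% ± 6.54 in the vehicle kidneys. With 7c the shares of H2-D1 were 11.9% ± 4.36 in liver and 35.6% ± 9.27 in kidney, differences from vehicle that were smaller than the SD within the 7c group. H2-T22, a ligand of gamma delta T cells, held 2.17% ± 0.425 in the vehicle livers and 13.3% ± 3.28 in the vehicle kidneys. The plot of the shares shows how alike the 10 livers are in their H2-Q10 share and how the kidneys vary in H2-D1.

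**Figure D2:**
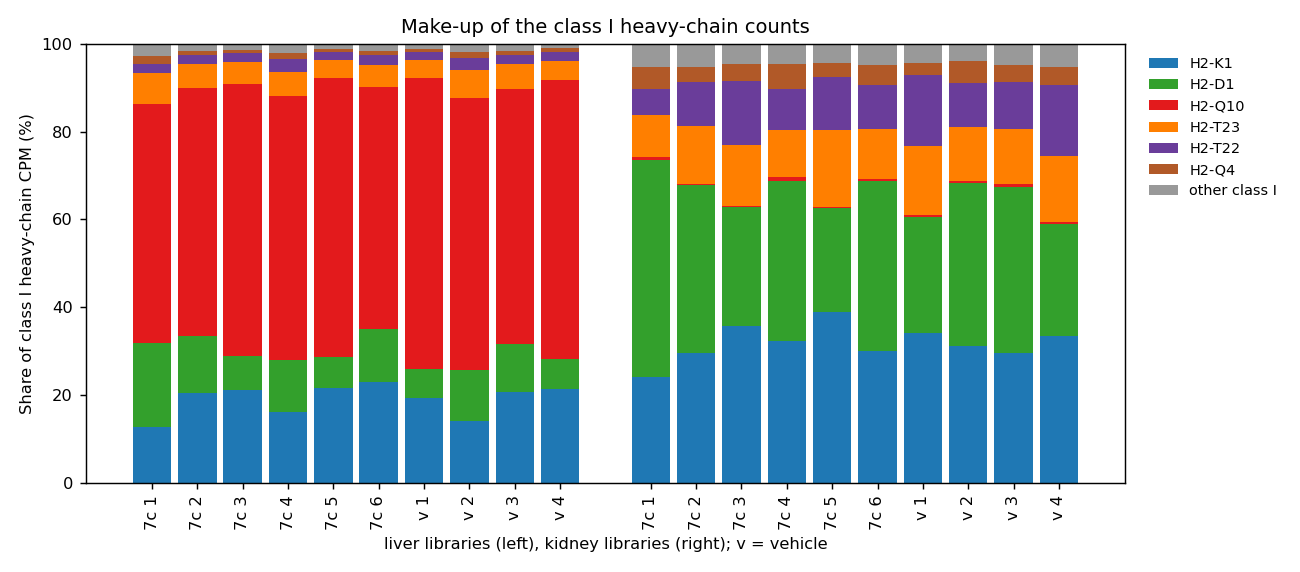
Share (%) of the summed CPM of the 30 class I heavy chains held by 6 genes and by the rest, as stacked bars, for the 10 livers on the left and the 10 kidneys on the right. H2-Q10 fills 54.5% to 66.3% of each liver bar and under 1% of each kidney bar, and 7c kidney 1 has the largest H2-D1 share, 49.5%.

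Of the other heavy chains, H2-T23, whose product Qa-1 presents leader peptides of classical chains to NK cells, had 231, 243, 247 and 238 CPM in the vehicle livers and ranged from 232 to 307 CPM with a median of 248 in the 7c livers. In the kidneys it had 64.6, 57.9, 65.2 and 65.6 CPM with vehicle and ranged from 57.1 to 117 CPM with a median of 64.3 with 7c. Of the 19 heavy chains tested it varied least between the vehicle livers, with a coefficient of variation of 2.79%, where H2-K1 had 30.6% and H2-D1 11.97%. H2-T22 had 105, 105, 85.1 and 111 CPM in the vehicle livers and 65.6, 47.98, 56.2 and 70.5 in the vehicle kidneys. H2-Q4, a Q region chain, had 36.2, 46.5, 46.9 and 41.4 in these livers against 11.6, 23.9, 19.9 and 18.4 in the kidneys. Every vehicle liver lay above every vehicle kidney in both. H2-Q1 had 24.7, 17.3, 5.97 and 20.7 in the livers and 1.85, 3.05, 1.51 and 1.64 in the kidneys, a gap in which no library of the tissues overlapped. The T22 and Q4 genes share 6.74% and 7.34% of their 100-base windows with other H2 models, and H2-Q1 8.05%.

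Tap1 had 24.8, 24.3, 27.9 and 29.3 CPM in the vehicle livers and 6.59, 7.66, 8.26 and 8.53 in the vehicle kidneys, whereas its partner Tap2 had 17.1, 18.95, 19.7 and 25.8 in these livers against 10.9, 11.1, 10.8 and 11.3 in the kidneys. Every vehicle liver lay above every vehicle kidney for both transporter genes. Psmb8 had 16.97, 22.6, 19.8 and 23.2 CPM in the vehicle livers and ranged from 18.1 to 32.9 CPM with a median of 24.7 in the 7c livers. Psmb10 had 23.5, 33.6, 28.5 and 28.3 with vehicle and ranged from 25.1 to 43.9 CPM with a median of 35.8 with 7c. Vehicle and 7c livers overlapped for each of these genes. In the vehicle kidneys Psmb8 had 4.95, 7.39, 4.20 and 4.62 CPM and Psmb9 had 5.03, 4.21, 5.16 and 4.23. Psmb10 had 7.96, 20.6, 8.81 and 8.22 there, so that vehicle replicate 2 was the highest in Psmb10. Ciita had 3.66, 3.49, 5.67 and 3.93 CPM in the vehicle kidneys and ranged from 2.15 to 6.00 CPM with a median of 3.79 in the 7c kidneys. All kidneys but that of 7c replicate 2 lay above every liver in Ciita.

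Several non-classical heavy chains of low level were nearly absent in some libraries and present in others, across both treatments. H2-T3, which encodes the thymus leukaemia antigen of intestinal epithelium, had 0 counts in the livers of 7c replicates 3 and 5 and vehicle replicates 1 and 4, and 0.484 to 1.30 CPM (12 counts or more) in the other 6. The kidneys of the same numbers, 7c 3 and 5 and vehicle 1 and 4, also had 0 counts of H2-T3, and the others 0.191 to 0.684 CPM (9 counts or more). H2-Q7, a gene of the Qa-2 antigen, had 1.71 CPM in the liver of 7c replicate 4 and 2.08 in that of vehicle replicate 2, against 7.05 to 26.1 in the other livers. In kidney the same numbers had 0.609 and 0.336 CPM, against 1.93 to 5.40 in the others. Of the 36 genes tested in both tissues, 3 had a gap of more than 1 on the log2 scale (with 0.1 CPM added) in both, and for H2-T3 and H2-Q7 the libraries below it had the same numbers in liver and kidney. For H2-T13 the kidneys below the gap were 7c 1, 2 and 6 and vehicle 3 (0.330 to 0.425 CPM, against 1.02 to 2.88), and in liver these and vehicle 4 lay below it (0.454 to 1.42 CPM, against 3.09 to 5.58).

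H2-T15 kept the same split in liver only. The livers of 7c replicates 3 and 5 and vehicle replicates 1 and 4, those at 0 for H2-T3, had 0 to 0.178 CPM of H2-T15, and the other livers 6.24 to 20.4. The kidneys of these numbers had 2.05, 2.91, 2.29 and 2.34 CPM, within the range of all kidneys (1.43 to 4.96). H2-T15 shares 26.6% of its 100-base windows with other H2 models, 24.7% with H2-T9 alone, and how reads with several positions were counted is not given in the sources used here, so its values are uncertain. H2-T10 in the liver of vehicle replicate 4 had 0.533 CPM, against 3.49 to 16.9 in the other livers. H2-T9 and H2-T10 overlap on the same strand by 5590 bases. Since alleles of the MHC differ between UM-HET3 mice while 1 reference was used for alignment, reads of an allele far from the reference may not be assigned to its gene. The effect of this on the levels near 0, on other heavy chain levels and on the 7c estimates was not tested.

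**Figure D3:**
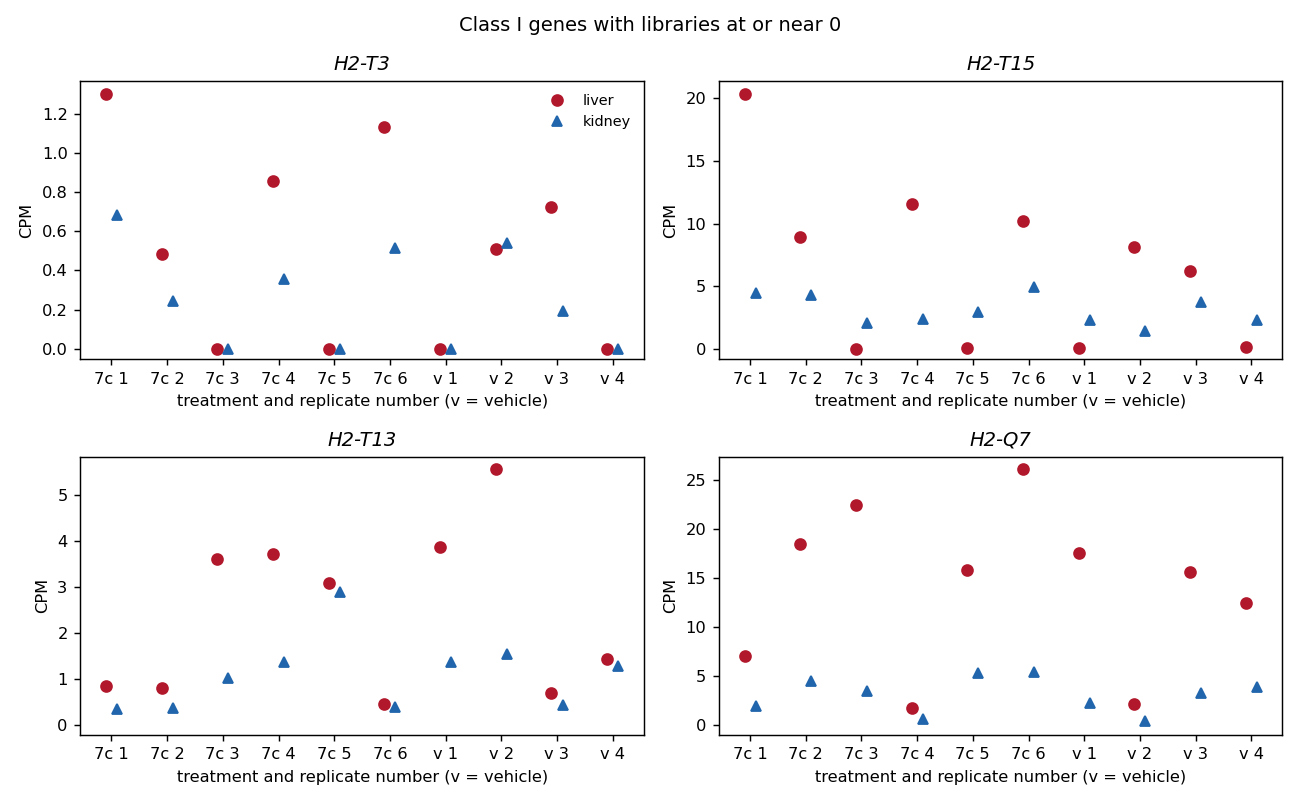
CPM of 4 class I heavy chains in each library, red circles for liver and blue triangles for kidney, by treatment and replicate number (v, vehicle). H2-T3 is at 0 in both tissues under the numbers 7c 3, 7c 5, v 1 and v 4, H2-T15 is near 0 under these numbers in liver only, and H2-Q7 is lowest under 7c 4 and v 2 in both tissues.

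The class II genes had the opposite balance between the tissues. Cd74, the invariant chain, had 44.3, 69.5, 42.2 and 84.8 CPM in the vehicle livers and ranged from 28.3 to 108 CPM with a median of 86.97 in the 7c livers. In kidney it had 114, 247, 166 and 128 CPM with vehicle and ranged from 118 to 319 CPM with a median of 200.2 with 7c. The liver of 7c replicate 6 was the lowest of all 20 libraries and the kidney of 7c replicate 5 the highest. H2-Ab1, the beta chain of the A molecule, had 13.6, 13.3, 19.5 and 25.2 CPM in the vehicle livers and 48.1, 69.5, 79.4 and 44.2 in the vehicle kidneys. H2-Aa, its alpha chain, had 17.9, 21.2, 16.3 and 30.5 in these livers against 54.5, 84.8, 71.8 and 52.04 in the kidneys. H2-Eb1, the beta chain of the E molecule, had 13.2, 16.2, 10.2 and 26.00 in the livers against 48.98, 89.1, 73.03 and 52.4 in the kidneys. For all 3 chains every vehicle kidney lay above every vehicle liver. H2-DMa, a subunit of the peptide exchange factor DM, had 1.39, 1.31, 2.28 and 1.78 CPM in the vehicle livers and 4.68, 10.3, 6.65 and 5.21 in the vehicle kidneys. The beta chains H2-DMb1 and H2-DMb2 share 11.3% and 8.71% of their windows with each other, and had 1.28 to 1.93 and 0.462 to 1.31 CPM in the vehicle livers. Of the O chains, H2-Ob had 0.326 to 1.09 CPM in the vehicle livers and 0.963 to 2.12 in the vehicle kidneys, while H2-Oa had 0 counts in 8 of 10 livers and 4 to 29 counts in every kidney. The gene bodies of H2-Aa and H2-Eb1 overlap on opposite strands by 2563 bases, and since the strand setting of the counting is not given, reads there cannot be assigned with certainty.

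The treatment comparison asks which transcripts differ between mice given 7c and mice given vehicle, tissue by tissue. In liver, 7 of the 36 antigen presentation genes had an unadjusted p under 0.05 for 7c against vehicle, all with a higher estimate, and 0 passed the threshold after adjustment over all genes (edgeR's quasi-likelihood test, Benjamini-Hochberg adjusted p = 0.9996 for each). The shares among all 15012 liver genes were 3.76% at an unadjusted p under 0.05 and 0.00666% past the threshold, against 19.4% and 0 of the 36. The estimate was above 0 in 31 of the 36 and in 50.4% of all genes, and the median was 0.31 against 0.0017 on the log2 scale. The p-values measure the spread between these mice. Estimates below are log2 fold changes from this test.

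H2-Q6, like H2-Q7 a gene of the Qa-2 antigen, had 4.69, 6.12, 7.69 and 4.48 CPM in the vehicle livers and ranged from 7.31 to 15.2 CPM with a median of 9.52 in the 7c livers. Its estimate was 0.79 (SE 0.24, 95% interval 0.27 to 1.31), and all vehicle livers lay below 4 of the 6 7c livers. For H2-D1, whose levels are given above, the estimate was 0.40 (SE 0.15, 95% interval 0.089 to 0.72), and every vehicle liver was below 5 of the 6 7c livers. H2-Q5 had 1.84, 4.26, 2.07 and 2.20 CPM with vehicle and ranged from 2.27 to 8.85 CPM with a median of 5.04 with 7c. Its estimate was 0.98 (SE 0.37, 95% interval 0.17 to 1.79), vehicle replicate 2 lay among the 7c livers, and 16.96% of its windows are shared with other H2 models, chiefly H2-Q7. The other classical chain, H2-K1, had an estimate of 0.054 (95% interval -0.54 to 0.65) and H2-Q10 of -0.064 (-0.47 to 0.34). Over the 19 heavy chains tested, 14 had a higher estimate, with a median of 0.24. H2-M3, which presents formylated peptides of bacteria and mitochondria, had the lowest estimate, -0.51 (SE 0.31, 95% interval -1.17 to 0.15). It had 3.83, 3.61, 4.90 and 4.55 CPM in the vehicle livers, and 5 of 6 7c livers (1.77 to 3.43 CPM) lay below all of them while 7c replicate 1 (5.62 CPM) lay above. The labels give no MHC haplotypes, and the part of haplotypes in the heavy chain estimates of either tissue was not tested.

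All 8 class II genes tested in liver had a higher estimate with 7c, with a median of 0.72. H2-Ab1 ranged from 10.7 to 58.3 CPM with a median of 33.9 in the 7c livers, of which 5 lay above every vehicle liver and 7c replicate 6 below every one, an estimate of 0.91 (SE 0.36, 95% interval 0.14 to 1.67). H2-DMa ranged from 1.95 to 6.65 CPM with a median of 2.51, and its estimate was 0.92 (SE 0.40, 95% interval 0.071 to 1.77). H2-Eb1 ranged from 10.4 to 45.2 CPM with a median of 32.5, with an estimate of 0.86 (SE 0.37, 95% interval 0.054 to 1.66). H2-Aa, its neighbour, had an estimate of 0.58 (SE 0.35, 95% interval -0.16 to 1.33), and Cd74 of 0.32 (SE 0.31, 95% interval -0.35 to 1.00). H2-DMb2 and H2-DMb1 had 0.98 (SE 0.48) and 0.58 (SE 0.31), and H2-Ob 0.10 (SE 0.55). Ciita, the class II transactivator, had 0.979, 2.73, 0.138 and 2.63 CPM with vehicle and ranged from 0.952 to 2.27 CPM with a median of 2.20 with 7c, all of them within the vehicle range (estimate 0.20, SE 0.58).

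In bulk tissue, fewer cells of a type and less RNA per cell cannot be told apart, so markers of the cells that make class II were read beside these values. The summed CPM of 6 leukocyte markers was 144 to 176 in the 7c livers and 144 to 196 in the vehicle livers. The sums were 177 to 533 and 226 to 577 for 13 macrophage and Kupffer cell markers, 9.90 to 12.2 and 9.71 to 11.8 for 8 dendritic cell markers, 3.45 to 10.4 and 1.59 to 6.85 for 8 B cell markers, 3.45 to 8.72 and 3.55 to 5.07 for 10 T and NK cell markers, and 226 to 471 and 348 to 425 for 9 endothelial markers. The ranges overlapped for every list. The liver of 7c replicate 6, lowest in H2-Ab1, H2-Aa, H2-Eb1 and Cd74 among the 7c livers, was also the lowest of the 10 livers in macrophage (177 CPM) and endothelial (226 CPM) markers and the highest in B cell markers (10.4 CPM). Of single markers, picked for the smallest p in their lists, the B cell gene Fcer2a had an estimate of 1.76 (SE 0.74) and the endothelial gene Pecam1 of -0.39 (SE 0.16), both with an adjusted p of 0.9996 from edgeR. Fcer2a was near 0, with 0.814 ± 0.397 CPM (SD, n = 6) with 7c and 0.231 ± 0.168 (SD, n = 4) with vehicle. Of the B cell markers tested in liver, 4 had a higher and 2 a lower estimate, and of the endothelial ones 1 and 8. Without 7c replicate 6, 9 of the 36 genes and 2.91% of all genes had an unadjusted p under 0.05 and 0 of the 36 passed the threshold, and the estimates were 1.09 for H2-Ab1, 1.04 for H2-Eb1, 1.03 for H2-DMa and 0.50 for Cd74. Without 7c replicate 3 they were 0.68 for H2-Ab1, 0.70 for H2-Eb1, 0.57 for H2-DMa and 0.19 for Cd74, and Cd74 had 0.20 without vehicle replicate 1 and 0.20 without vehicle replicate 3. Without vehicle replicate 4, the liver that stood apart by its counts, 8 of the 36 genes and 4.02% of all genes had an unadjusted p under 0.05, 0 passed the threshold, and the estimates were 1.13 for H2-Ab1, 1.19 for H2-Eb1, 0.95 for H2-DMa and 0.55 for Cd74. The part of these cells in the class II values was not tested.

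The other 9 genes, B2m, the genes of peptide supply and loading and the transactivators Nlrc5 and Ciita, also had higher estimates in the 7c livers, with a median of 0.26, and 1 of them an unadjusted p under 0.05. This was Psmb9, with 19.99, 25.9, 22.97 and 28.3 CPM in the vehicle livers and 25.1 to 37.5 (median 31.3) in the 7c livers, an estimate of 0.35 (SE 0.14, 95% interval 0.047 to 0.65). Psmb9 and Tap1 overlap by 743 bases on opposite strands, and Tap1 had an estimate of 0.26 (SE 0.12, 95% interval -0.0066 to 0.52). Psmb10 and Psmb8 had 0.30 (SE 0.15) and 0.25 (SE 0.16), Tap2 0.26 (SE 0.17) and Tapbp 0.12 (SE 0.11). Nlrc5, the class I transactivator, had 10.5, 18.04, 11.9 and 20.6 CPM with vehicle and ranged from 15.1 to 28.9 CPM with a median of 21.4 with 7c, an estimate of 0.46 (SE 0.23, 95% interval -0.042 to 0.95). B2m had an estimate of 0.14 (SE 0.10, 95% interval -0.072 to 0.36). For none of the 36 genes did the 7c and vehicle livers separate completely, against 0.666% of all liver genes. The number of antigen presentation genes at an unadjusted p under 0.05 was 1 without vehicle replicate 1 (all genes 3.81%) and 4 without vehicle replicate 3 (all genes 3.66%), and Psmb8 had an estimate of 0.16 without 7c replicate 1 and 0.16 without vehicle replicate 1. The number was 7 with DESeq2 (all genes 3.95%, smallest adjusted p = 0.484) and 4 with limma-voom (all genes 4.13%).

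**Figure D4:**
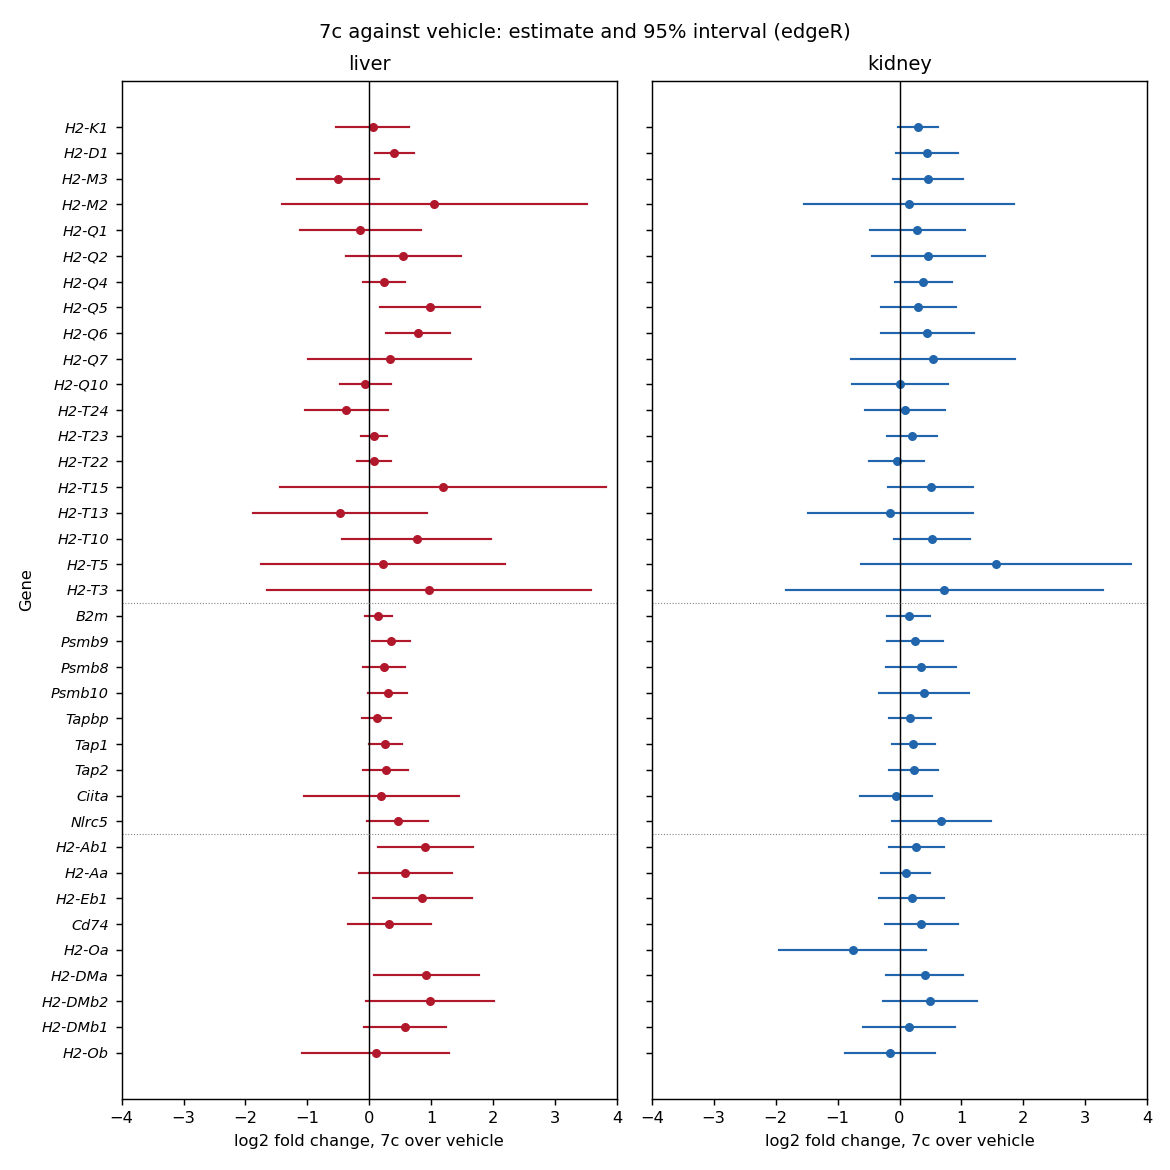
Estimated log2 fold change of 7c over vehicle (points) with its 95% interval (lines) from edgeR, in liver on the left and kidney on the right, for the 37 antigen presentation genes tested. Heavy chains are at the top, the class I pathway and the transactivators in the middle and class II below, and 31 liver and 32 kidney points lie right of 0 while 0 genes passed the threshold in either tissue.

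In kidney, 0 of 37 antigen presentation genes passed the threshold for 7c against vehicle and 0 had an unadjusted p under 0.05 (edgeR's quasi-likelihood test, adjusted p of 0.9967 or more), where the shares among all 17749 kidney genes were 0% and 2.61%. The estimate was above 0 in 32 of 37 genes and in 49.0% of all kidney genes, with a median of 0.29 against -0.0057. By groups, 17 of 19 heavy chains, 8 of 9 pathway and transactivator genes and 7 of 9 class II genes had a higher estimate, with medians of 0.38, 0.23 and 0.19. H2-K1 had 139, 148, 154 and 145 CPM in the vehicle kidneys and ranged from 142 to 256 CPM with a median of 173 in the 7c kidneys, 5 of 6 of them above every vehicle kidney, an estimate of 0.30 (SE 0.15, 95% interval -0.025 to 0.62). H2-D1 had 108, 176, 195 and 112 CPM with vehicle and ranged from 131 to 292 CPM with a median of 208 with 7c, an estimate of 0.44 (SE 0.23, 95% interval -0.058 to 0.95). Nlrc5 had 1.79, 0.582, 2.25 and 1.62 CPM with vehicle and ranged from 1.65 to 4.18 CPM with a median of 2.24 with 7c, an estimate of 0.68 (SE 0.37, 95% interval -0.12 to 1.48), with vehicle replicate 2 the lowest of all kidneys. The light chain B2m had an estimate of 0.15 (SE 0.16, 95% interval -0.20 to 0.50), Psmb10 of 0.39 (SE 0.34, 95% interval -0.34 to 1.12), Tap1 of 0.22 (SE 0.16, 95% interval -0.12 to 0.57) and Ciita of -0.052 (SE 0.27, 95% interval -0.63 to 0.53). Of the class II genes, Cd74 had an estimate of 0.35 (SE 0.27, 95% interval -0.24 to 0.95), H2-Aa had an estimate of 0.100 (SE 0.18, 95% interval -0.30 to 0.50), H2-Eb1 of 0.19 (SE 0.24, 95% interval -0.33 to 0.72) and H2-Ab1 of 0.27 (SE 0.21, 95% interval -0.18 to 0.71). H2-Oa had the lowest, -0.76 (SE 0.55, 95% interval -1.95 to 0.43), from 4 to 29 counts per kidney, and 4 of 6 7c kidneys lay below every vehicle kidney. The leukocyte sum was 41.3 to 70.95 CPM in the 7c kidneys and 43.7 to 55.1 in the vehicle kidneys, and the macrophage sum 81.6 to 127 and 90.05 to 129.6. No gene of the 37 had groups that did not overlap, against 0.716% of all kidney genes. Without vehicle replicate 2 the number at an unadjusted p under 0.05 was 6 (all genes 10.3%), without vehicle replicate 3 it was 4 (all genes 2.22%), and without 7c replicate 1, 3 or 6 it was 1 (all genes 2.19%, 4.39% and 2.88%). DESeq2 gave 0 (all genes 3.23%) and limma-voom 1 (all genes 2.699%). Single estimates moved with the library left out. Psmb10 had 0.84 without vehicle replicate 2 and 0.16 without 7c replicate 5, and Cd74 had 0.62 and 0.20. B2m had 0.32 without vehicle replicate 2 and 0.048 without vehicle replicate 4. Nlrc5 had 0.41 without vehicle replicate 2 and 0.91 without vehicle replicate 3, and H2-K1 had 0.17 without 7c replicate 5. Without the kidneys of 7c replicate 5 and vehicle replicate 2 together, 6 of 37 genes and 8.56% of all genes had an unadjusted p under 0.05 and 0 of the 37 passed the threshold (edgeR, smallest adjusted p = 0.580). For genes described above, whatever their p and not as the genes just counted, the estimates were then 0.61 for Psmb10, 0.60 for H2-D1, 0.49 for Nlrc5, 0.46 for Cd74, 0.38 for B2m and 0.17 for H2-K1.

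Whether 7c moved these genes differently in the 2 tissues was tested by the interaction of treatment and tissue on the 14163 genes tested in both. None of the 36 genes passed the threshold (edgeR's quasi-likelihood test, smallest adjusted p = 0.9999), and 1 had an unadjusted p under 0.05, the shares among all genes being 0.00706% and 2.49%. That gene was H2-M3, with a kidney minus liver difference of 0.98 (SE 0.42, 95% interval 0.11 to 1.85). In kidney H2-M3 had 1.48, 1.77, 2.34 and 1.37 CPM with vehicle and ranged from 1.77 to 3.52 CPM with a median of 2.16 with 7c, an estimate of 0.46 where liver had -0.51. With the liver and kidney of 1 replicate number left out together, the H2-M3 difference was 0.84 to 1.27. The number of the 36 genes at an unadjusted p under 0.05 was then 0 without 7c replicate 2, 7c replicate 4 or vehicle replicate 1 (all genes 2.28%, 2.07% and 2.51%). It was 2 without 7c replicate 5 or 6 (all genes 2.17% and 2.42%). The class II genes had a lower estimate in kidney than in liver in 7 of 8 cases, with a median difference of -0.47. DESeq2 and limma-voom also gave 0 of the 36 past the threshold and 1 at an unadjusted p under 0.05 (all genes 3.06% and 2.51%). Without the kidneys of 7c replicate 5 and vehicle replicate 2, 2 of the 36 and 3.67% of all genes had an unadjusted p under 0.05, and 0 of the 36 passed the threshold.

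Kidney and liver were compared over the 18598 genes tested in either tissue (edgeR's quasi-likelihood test). H2-Oa had passed the count filter in kidney alone, the tissue in which it is higher, so it is left out of the counts here and no call is drawn from it. Of the 36 genes tested in both tissues, 29 differed in the vehicle mice, 21 of them lower and 8 higher in kidney. Among all genes 26.8% were called lower and 31% higher, and among the 14163 genes tested in both tissues 29.95% and 25.8%. In the 7c mice 28 of the 36 were called, 20 lower and 8 higher, where 30.5% and 33.4% of all genes were, and 34.4% and 28.8% of those tested in both. In the vehicle mice the median on the log2 scale was 0.11 over all genes tested in either tissue and -0.062 over those tested in both. Against these, the median was -1.32 over the 19 heavy chains, -1.78 over the 9 pathway and transactivator genes and 1.68 over the 8 class II genes tested in both tissues. The vehicle and 7c comparisons share no library.

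In the heavy chains, 14 of 19 were lower in kidney with vehicle and 13 with 7c, and 0 were higher. H2-Q10 fell by 10.34 on the log2 scale in kidney (SE 0.45, adjusted p = 1.72e-14), the largest difference of the 36. H2-Q1 had -3.09 (SE 0.52, adjusted p = 2.68e-05), H2-K1 -2.64 (SE 0.28, adjusted p = 3.43e-08), H2-T23 -1.92 (SE 0.17, adjusted p = 3.41e-09) and H2-D1 -1.49 (SE 0.23, adjusted p = 1.19e-05). H2-Q4 had -1.21 and H2-T22 -0.76. With 7c the same genes had -10.28 (H2-Q10), -2.66 (H2-Q1), -2.41 (H2-K1), -1.81 (H2-T23), -1.46 (H2-D1), -1.09 (H2-Q4) and -0.89 (H2-T22). H2-M3 passed the threshold with vehicle (-1.28, SE 0.33, adjusted p = 0.00232) and did not with 7c (-0.33, SE 0.27, adjusted p = 0.294), a difference that the interaction above tests. The heavy chains not called in either group were H2-M2, H2-T3, H2-T13 and H2-T15, of which the last 3 are split between libraries as described. The vehicle call of H2-Q6 was lost without replicate 1 or 2 and without the kidneys of 7c replicate 5 and vehicle replicate 2, and that of H2-Q7 without replicate 1.

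The partners of the heavy chains were lower in kidney as well. B2m had -3.59 (SE 0.18, adjusted p = 1.72e-13) with vehicle and -3.60 (SE 0.15, adjusted p = 2.68e-15) with 7c, so that the light chain lay 12.1-fold below its liver level in the vehicle mice. Nlrc5 had -3.29 (SE 0.37, adjusted p = 9.27e-08), Psmb9 -2.38 (SE 0.20, adjusted p = 1.29e-09), Psmb8 -1.96 (SE 0.25, adjusted p = 8.35e-07) and Tap1 -1.78 (SE 0.16, adjusted p = 3.12e-09). Psmb10 (-1.32) and Tap2 (-0.89) were also called lower. Tapbp did not pass the threshold with vehicle (-0.19, SE 0.15, adjusted p = 0.311) or 7c (-0.15, SE 0.12, adjusted p = 0.302), and it had 66.7, 74.3, 78.6 and 82.2 CPM in the vehicle livers and 58.6, 87.98, 59.1 and 59.8 in the vehicle kidneys. When libraries were scaled by total count alone, a setting chosen after the data were seen, the median of all genes moved from 0.11 to 0.71, and Tapbp turned to 0.40, higher in kidney (adjusted p = 0.0164). Under that scaling 13 of the 36 genes were called lower in the vehicle kidneys, and H2-Q6, H2-Q7, H2-T22 and Tap2 were among the calls lost. Of all 18598 genes, 12140 were then called in either direction, against 10762 under TMM.

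Class II was higher in kidney. With vehicle, H2-Eb1 had 2.01 (SE 0.38, adjusted p = 0.000117), H2-DMa 1.99 (SE 0.39, adjusted p = 0.000148), H2-DMb1 1.82 (SE 0.36, adjusted p = 0.000198), H2-Ab1 1.75 (SE 0.35, adjusted p = 0.000166) and H2-Aa 1.61 (SE 0.33, adjusted p = 0.000283). H2-DMb2 (1.55) and Cd74 (1.44, SE 0.36, adjusted p = 0.00150) completed the 7 class II genes called higher, and the other gene called higher was Ciita (1.37, SE 0.51, adjusted p = 0.0267). H2-Ob did not pass the threshold with vehicle (0.79, SE 0.50, adjusted p = 0.183). With 7c the estimates were 1.33 (H2-Eb1), 1.46 (H2-DMa), 1.38 (H2-DMb1), 1.10 (H2-Ab1), 1.12 (H2-Aa), 1.06 (H2-DMb2), 1.46 (Cd74) and 1.12 (Ciita), all past the threshold. The Ciita call was lost without vehicle replicate 1 (1.25, adjusted p = 0.0878 from edgeR) or 3 (0.80, adjusted p = 0.111) and, with 7c, without replicate 1, 3, 4 or 6. Without the kidneys of 7c replicate 5 and vehicle replicate 2, Ciita passed the threshold in both comparisons (edgeR). The leukocyte markers were the higher in liver, with sums of 144 to 196 CPM in the vehicle livers and 43.7 to 55.1 in the vehicle kidneys. Macrophage and Kupffer cell markers summed to 226 to 577 and 90.05 to 129.6, while dendritic cell (9.71 to 11.8 and 9.87 to 17.5) and B cell markers (1.59 to 6.85 and 5.39 to 9.34) overlapped. The part of any of these cells in the difference was not tested.

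**Figure D5:**
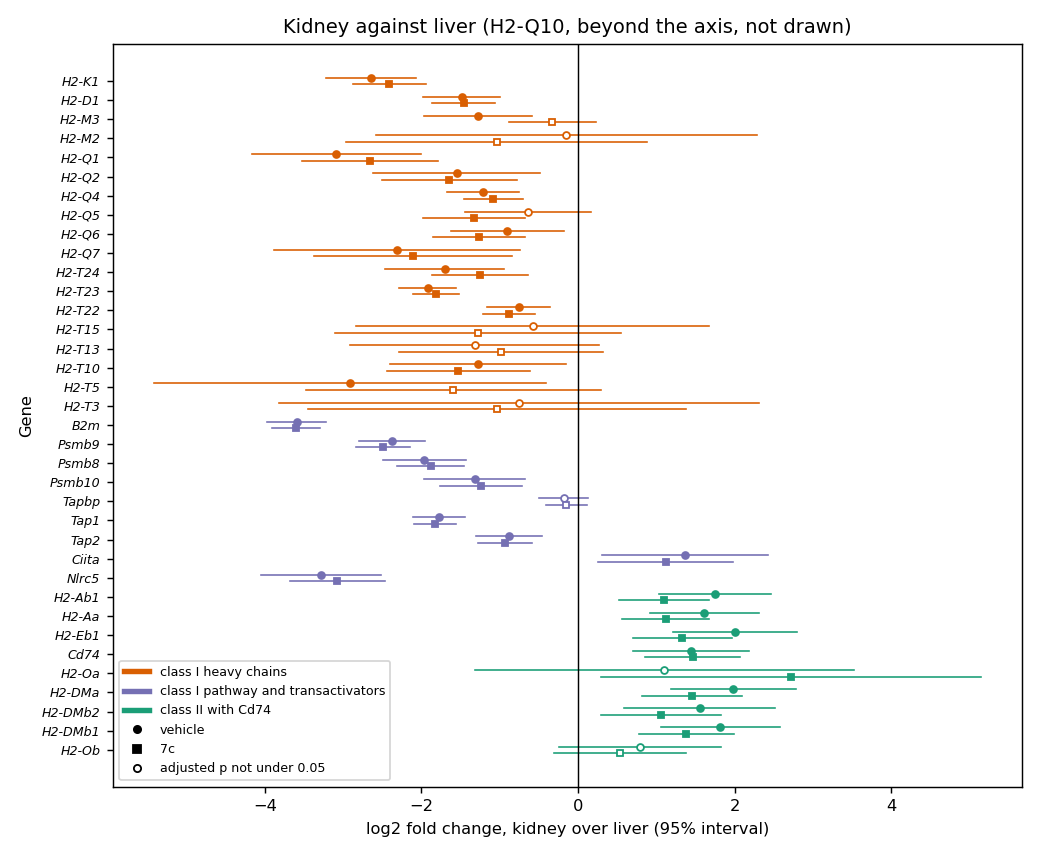
Log2 fold change of kidney over liver with its 95% interval from edgeR for 36 antigen presentation genes (H2-Q10, at -10.34 with vehicle, is beyond the axis), circles for vehicle and squares for 7c, open where the adjusted p is not under 0.05. Heavy chains and pathway genes except Ciita lie left of 0, Tapbp with open points in both comparisons. The 8 class II genes tested in both tissues lie right of 0, as does H2-Oa, which was tested in kidney alone.

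The share of immunoproteasome over constitutive subunits was read from 3 ratios of counts per kb, each setting an immunoproteasome subunit against the one it replaces. Psmb9 to Psmb6 ranged from 0.0880 to 0.139 over the 10 livers and from 0.0168 to 0.0417 over the 10 kidneys. Psmb8 to Psmb5 ranged from 0.187 to 0.585 and from 0.0498 to 0.0927, and Psmb10 to Psmb7 from 0.702 to 1.19 and from 0.487 to 1.46. In liver the geometric mean of Psmb9 to Psmb6 was 0.114 with 7c and 0.0957 with vehicle, a difference of 0.26 on the log2 scale (exact permutation test, two-sided, p = 0.0762, adjusted over 6 tests p = 0.343). The differences of Psmb10 to Psmb7 and Psmb8 to Psmb5 in liver were 0.26 (exact permutation test, p = 0.114) and 0.39 (exact p = 0.381). In kidney they were 0.41 for Psmb10 to Psmb7 (exact p = 0.343), 0.26 for Psmb8 to Psmb5 (exact p = 0.181) and -0.052 for Psmb9 to Psmb6 (exact p = 0.905). These differences moved with the library left out. For Psmb8 to Psmb5 in liver, vehicle replicate 2 had 0.571 where the other vehicle livers had 0.206 to 0.227, and the difference was 0.75 without it and 0.25, 0.27 and 0.26 without 7c replicate 4, 7c replicate 6 or vehicle replicate 1. Psmb10 to Psmb7 in liver was 0.16 without vehicle replicate 1. In kidney, Psmb10 to Psmb7 was 0.74 without vehicle replicate 2 and 0.26 without 7c replicate 5, and Psmb8 to Psmb5 was 0.40 without vehicle replicate 2 and 0.17 without 7c replicate 4. Over the kidneys other than 7c replicate 5 and vehicle replicate 2, the differences were 0.59 for Psmb10 to Psmb7 (exact p = 0.143), 0.39 for Psmb8 to Psmb5 (exact p = 0.0357, the smallest that 5 against 3 allow, and 0.107 adjusted over the 3 kidney tests) and -0.18 for Psmb9 to Psmb6 (exact p = 0.571). With all libraries none of the 6 passed 0.05, and the smallest p that 6 against 4 allow is 0.00476.

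Variation with Cd74 was also read over the 10 libraries of a tissue, in log2 CPM with a permutation test of 100000 resamples. In liver the chains of the A and E molecules had the highest correlations: H2-Aa (Pearson r = 0.94, p = 3e-05, adjusted p = 0.113), H2-Eb1 (Pearson r = 0.93, p = 0.0001, adjusted p = 0.236) and H2-Ab1 (Pearson r = 0.83, p = 0.00282, adjusted p = 0.612). Spearman's rho was 0.98 (permutation p = 3e-05), 0.96 (permutation p = 6e-05) and 0.85 (permutation p = 0.00273). Without the libraries farthest from the median, 7c 6 and vehicle 3, r was 0.87, 0.92 and 0.79, and with each treatment group centred on its mean it was 0.94, 0.96 and 0.86. These were the 3 of 35 genes at an unadjusted permutation p under 0.05 (all genes 6.08%), and 0 were past the adjusted threshold (all genes 0%). Without 7c replicate 6 the count at an unadjusted p under 0.05 was 8 (all genes 6.46%), and without vehicle replicate 4 it was 4 (all genes 5.70%). The 5 genes outside the pathway list with the highest r in liver, chosen for it, were Nxpe3 (0.97), Gbp6 (0.94), Serpina3i (0.93), Bco2 (0.92), Ntn1 (0.91).

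In kidney 11 of 36 genes had an unadjusted permutation p under 0.05 with Cd74 and 8 were past the adjusted threshold. Among all kidney genes 41.5% and 28.5% were, so these shares (30.6% and 22.2%) are below those of all genes. The highest were H2-DMa (Pearson r = 0.98, p = 5e-05, adjusted p = 0.00869), Psmb10 (Pearson r = 0.96, p = 4e-05, adjusted p = 0.00869) and H2-Eb1 (Pearson r = 0.94, p = 4e-05, adjusted p = 0.00869). Their Spearman rho was 0.92 (permutation p = 0.000510), 0.96 (p = 1e-05 by the same permutation test, the smallest it can give) and 0.98 (p = 4e-05 likewise). Without 7c 5 and vehicle 1, the farthest from the median, r was 0.95, 0.93 and 0.91. A further 5 genes were past the threshold. H2-Aa had r = 0.94 (permutation p = 0.000110), rho = 0.94 (p = 0.000280) and r = 0.93 without the farthest libraries. Tapbp had r = 0.92 (permutation p = 0.000340), rho = 0.92 (p = 0.0005) and r = 0.90 without the farthest libraries. H2-Ab1 had r = 0.89 (permutation p = 0.001), rho = 0.85 (p = 0.00292) and r = 0.83 without the farthest libraries. Psmb8 had r = 0.84 (permutation p = 0.00363), rho = 0.78 (p = 0.0101) and r = 0.80 without the farthest libraries. H2-T10 had r = 0.78 (permutation p = 0.00776), rho = 0.92 (p = 0.000550) and r = 0.63 without the farthest libraries. Without the kidneys of 7c replicate 5 and vehicle replicate 2, which stand apart, 15 of 36 genes (41.7%) had an unadjusted p under 0.05 by exact permutation over the 8 others, and 20.96% of all genes did, so that the share was then above that of all genes. Past the adjusted threshold were 0 of the 36 and 0% of all genes (smallest adjusted p by exact permutation = 0.142). None of the 8 calls was thus kept over these fewer libraries. The correlations were 0.96 for H2-DMa, 0.95 for Psmb10, 0.91 for H2-Eb1, 0.91 for H2-Aa, 0.91 for H2-Ab1, 0.88 for Tapbp, 0.82 for H2-T10 and 0.72 for Psmb8. The 5 genes outside the pathway list with the highest r in kidney, chosen for it, were Coa8 (0.98), Ptp4a3 (0.97), Man2b2 (0.97), Tnfrsf12a (0.97), Vim (0.97).

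With Tap1, 5 of 35 genes in liver had an unadjusted permutation p under 0.05 (all genes 4.83%) and 0 were past the adjusted threshold (all genes 0%). They were Psmb9 (Pearson r = 0.85, p = 0.00183, adjusted p = 0.841), whose gene overlaps Tap1 on the other strand, Tap2, Tapbp, B2m and H2-Q6. For Psmb9 rho was 0.79 (permutation p = 0.00803) and r was 0.89 without 7c 4 and vehicle 2, the libraries farthest from the median. Tap2 had r = 0.74 (permutation p = 0.0148), rho = 0.61 (p = 0.0661) and r = 0.42 without the farthest libraries. Tapbp had r = 0.68 (permutation p = 0.0289), rho = 0.62 (p = 0.0596) and r = 0.49 without the farthest libraries. B2m had r = 0.68 (permutation p = 0.0340), rho = 0.43 (p = 0.217) and r = 0.55 without the farthest libraries. H2-Q6 had r = 0.63 (permutation p = 0.0495), rho = 0.62 (p = 0.0599) and r = 0.52 without the farthest libraries. The correlations of these 4 genes rest in part on the libraries left out. In kidney 2 of 36, H2-Q2 and H2-T10, had an unadjusted permutation p under 0.05 (all genes 1.75%) and 0 were past the adjusted threshold (all genes 0%). H2-Q2 had r = 0.80 (permutation p = 0.00554), rho = 0.71 (p = 0.0264) and r = 0.59 without the farthest libraries. H2-T10 had r = 0.68 (permutation p = 0.0304), rho = 0.55 (p = 0.105) and r = 0.43 without the farthest libraries. Both fell without 7c 1 and vehicle 1, the kidneys farthest from the median. Without the kidneys of 7c 5 and vehicle 2, 3 of 36 genes and 4.89% of all genes had an unadjusted p under 0.05 by exact permutation, and 0 were past the adjusted threshold.

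Other genes of the pathway were read in lists written with earlier results of these data known. None of them passed the threshold in either tissue for 7c against vehicle (edgeR's quasi-likelihood test). Of 16 genes that supply or load class I peptides, such as the chaperones Calr and Canx, 9 had a higher estimate in liver and 11 in kidney, with medians of 0.0067 and 0.025 on the log2 scale. Of 11 class II processing genes, chiefly lysosomal proteases, 6 had a higher estimate in each tissue, and 1 in kidney had an unadjusted p under 0.05, Cd83, a protein that stabilizes class II on the surface (-0.72, SE 0.31, adjusted p = 0.9967). Of 20 regulators of MHC transcription tested, 11 had a higher estimate in liver and 7 in kidney. Among them Rfxank, a subunit of the factor that binds the X box of class II promoters, had 10.6 ± 2.56 CPM (SD, n = 6) in the 7c livers and 7.54 ± 1.27 (SD, n = 4) in the vehicle livers (0.46, SE 0.20, adjusted p = 0.9996). Nfyc, a subunit of the factor that binds the Y box, had 25.9 ± 2.24 and 30.9 ± 3.18 CPM (-0.28, SE 0.10, adjusted p = 0.9996).

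Of 22 interferon-stimulated genes, 15 had a higher estimate in liver and 14 in kidney, with medians of 0.079 and 0.12, and 2 in liver had an unadjusted p under 0.05. Igtp, a GTPase induced by interferon gamma, had 53.9 ± 10.9 CPM in the 7c livers and 38.5 ± 2.88 in the vehicle livers (0.46, SE 0.14, adjusted p = 0.9996). Cxcl9, a chemokine induced by interferon gamma, had 11.4 ± 8.19 and 3.78 ± 1.55 CPM (1.57, SE 0.54, adjusted p = 0.9996). The co-stimulatory and checkpoint molecules had 4 of 6 genes tested in each tissue, 2 higher and 2 lower. In the kidneys, 6 of 6 hepatocyte markers had a lower estimate with 7c, among them Alb (-1.08, SE 0.32, adjusted p = 0.9967) and Cps1 (-2.99, SE 0.77, adjusted p = 0.9967), with sums of 1681 to 2323 CPM with 7c and 1951 to 2335 with vehicle. With the kidneys of 7c replicate 5 and vehicle replicate 2 left out, the kidney estimates were -0.85 for Cd83, -0.98 for Alb and -3.00 for Cps1 (adjusted p = 0.580 for each, edgeR). For H2-Q10, abundant in liver, the kidney estimate was 0.23 with these left out and, over all kidneys, 0.010 (95% interval -0.76 to 0.78).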

How the data were processed

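TruSeq stranded libraries of polyadenylated RNA from 10 livers and 10 kidneys were sequenced. Alignment by the authors was to GRCm39 with STAR 2.7.11b, and featureCounts 2.0.6 gave the deposited raw counts per gene (versions from the submitters' processing notes). The annotation release, strand setting and treatment of reads with several positions are not given in the sources used here. Symbols, positions and promoters came from GENCODE vM39 on GRCm39, matched by Ensembl identifier for 56310 of 57010 genes, and the 700 others held 0.0417% of the counts.

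A gene was tested in a tissue where 50% or more of its libraries had 10 or more counts. Tests were made with edgeR 4.0.16 (R 4.3.3) by TMM scaling, the quasi-likelihood F-test and Benjamini-Hochberg adjustment over all genes tested, at 0.05. Kidney and liver were compared in 1 fit of the 4 groups over genes passing in either tissue. For correlations within a tissue, a prior count of 2 was added before log2 CPM was taken, and p-values were adjusted over all genes (Python 3.11.15, scipy 1.17.1). Subunit ratios were compared by exact permutation. Depth limits the precision of low genes, for which counts are given. Limits allowed by a count of 0 cover counting error only, since copies made by PCR could not be told from separate molecules. Scripts were tested on simulated counts.

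As alternatives, DESeq2 1.42.0, limma-voom (limma 3.58.1), the likelihood ratio test, RLE size factors, filterByExpr, no filter, the replicate number as a block, Spearman correlation, centring on group means, leaving out each library, total count scaling and leaving out the kidneys of 7c replicate 5 and vehicle replicate 2 were tried, the last 2 chosen after the data were seen. Within a tissue, the replicate block matches 7c and vehicle libraries of equal number, which come from different mice. In fits over both tissues, the liver and kidney of a number were left out together. Genes described were the 10 that are no H2 gene, the class II chains, the 10 heavy chains of highest mean CPM, any other with an unadjusted p under 0.05 (up to 5 per comparison), those tested in neither tissue, up to 2 per tissue of each further list at an unadjusted p under 0.05, and the 5 genes most correlated with Cd74; any tested gene could be named. The split of heavy chains by replicate number was described after its values were seen. The members and lists were chosen with earlier results of these data known.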

Additional observations from a re-analysis of the deposited data

Results flagged for a closer look

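Of 146 combinations of a tested gene and a group, 13 had 1 library far from the others (Dixon's criterion at 95%), where chance gives about 1 in 20. In the kidney of 7c replicate 5, H2-K1 had 256 CPM, H2-T23 117 CPM and H2-DMb1 11.4 CPM, each the highest of its group. In the kidney of vehicle replicate 2, Psmb10 had 20.6 CPM, Tapbp 88.0 CPM and H2-T23 57.9 CPM, which stood apart from the other vehicle kidneys. The liver of vehicle replicate 2 stood apart in H2-Q5 (4.26 CPM) and H2-DMb2 (1.31 CPM). The kidney of vehicle replicate 1 did so in H2-Q5 (0.936 CPM) and H2-T10 (1.21 CPM), and that of vehicle replicate 3 in H2-T5 (0.319 CPM). Among the 7c kidneys, replicate 1 stood apart in H2-T24 (4.52 CPM) and replicate 6 in H2-M2 (0.0382 CPM). In all these cases the cause was not tested.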

How the results depend on the processing

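For 124 results, 1952 values were recomputed, of which 1876 were labelled the same, 7 reversed in direction, 25 weaker, 4 stronger and 40 moved. A test was labelled the same where it kept its direction and its side of the threshold, and moved refers to ranks and counts of genes. Total count scaling, chosen after the data were seen, gave 13 genes called lower in the vehicle kidneys (21 under TMM) and turned Tapbp to 0.40 with vehicle and 0.51 with 7c, and it moved the median of all genes by more than 0.5. Of all 18598 genes it called 12140 in either direction (10762 under TMM). With Cd74, 3 liver genes had an unadjusted permutation p under 0.05 (all genes 6.08%), and 3 to 8 with a library left out (all genes 4.90% to 6.74%). With Tap1, the 5 liver genes became 2 by Spearman correlation, 2 with groups centred and 2 to 6 with a library left out, and the 2 kidney genes became 1 by Spearman correlation and 1 to 4 with a library left out. The difference in Psmb9 to Psmb6 in kidney, -0.05, turned to 0.094 with the replicate block and ran from -0.30 to 0.091 with a library left out. The cause was not tested.

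With the replicate number as a block, 10 liver genes (7 without it) and 1 kidney gene (0 without it) had an unadjusted p under 0.05 for 7c against vehicle. Among all genes the shares were 2.598% in liver (3.76% without it) and 2.15% in kidney (2.61% without it). Of the antigen presentation genes 0 passed the threshold in either tissue. This block matches 7c and vehicle libraries of equal number, which come from different mice, and some 7c libraries have no vehicle partner. Same-numbered libraries of liver and kidney deviated together with a correlation over 0.1 in 7 of 10 pairs (0.011 to 0.26), and 8 of 10 correlated best with their own number. The labels do not say that a number marks a mouse, so the numbers were not taken as pairs and levels were not correlated between the tissues. Depth limits the 12 genes tested in neither tissue and the genes near 0, and the small groups limit what can be called in the rest.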

Other observations

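Among the genes too low to be tested, H2-M10.5 had 18, 6, 4, 0, 8 and 2 counts in the kidneys of 7c replicates 1 to 6 and 2, 0, 0 and 0 in those of the vehicle replicates, and 0 counts in every liver. H2-M5 had 2, 0, 0, 4, 0 and 7 counts in the 7c kidneys and 4, 8, 14 and 4 in the vehicle kidneys. Both were picked after their values were seen and were not tested. Genes of the M10 family are known from the vomeronasal organ.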
